A study of Mus musculus with 20 samples.

Results

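RNA-binding and splicing proteins read, process, transport and destroy messenger RNA, and their own transcripts can carry N6-methyladenosine (m6A), the methyl mark on adenosine that several of these proteins recognise. The genes described here were chosen by symbol and not by a measured value, although the choice was made with earlier results of these data known. A gene belonged to the group when its symbol started with 1 of 25 prefixes: Celf, Elavl, Rbfox, Nova, Cpeb, Pum, Hnrnp, Srsf, Ythd, Mbnl, Khdrbs, Pcbp, Qk, Rbm, Ptbp, Fmr1, Fxr, Ddx, Dhx, Igf2bp, Mettl, Serbp1, Ago, Tnrc6 or Cnot. In all, 57 of 3731 genes with an edited site in mouse cortex, hippocampus or cerebellum met this rule, and they held 334 of 25978 distinct edited sites.

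All 20 bulk RNA-seq libraries came from tamoxifen-treated mice. The drug was given at 20 mg/kg on 5 days, at intervals of 24 h, and the regions were dissected 7 days later. The mice carried a tamoxifen-inducible transgene for APOBEC1-YTH, a cytidine deaminase joined to the m6A-binding YTH domain, which converts cytidines close to an m6A to uridine, or for APOBEC1-YTHmut, the background control for such edits. There were 4 APOBEC1-YTH libraries from each region, from the same 4 animal numbers, and 3 APOBEC1-YTHmut libraries from cortex, 2 from hippocampus and 3 from cerebellum. Which promoter drives the transgene is not given in the sources used here, and neither are the strain and age of the mice behind these libraries. Each region was represented by 1 pooled list of edited sites with 1 editing level a site, printed here in percent and read as the share of edited reads. The lists hold no value per animal, no APOBEC1-YTHmut value and no read depth, so differences between regions have no replicate error and were not tested. A site that is missing from a list may be unedited, too thinly covered or below the lists' lowest level of 1%. In bulk tissue, a lower level in every cell and a different mix of cells cannot be told apart.

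m6A is placed on adenosines followed by a C within a short sequence, mainly in long internal exons and near the stop codon and in the 3′ untranslated region. Proteins with a YTH domain bind the mark, and its presence on a transcript is linked to faster decay, to splicing and to local translation in neurons. Many RNA-binding proteins control their own or each other's transcripts through long 3′ ends, which is where m6A is commonly found.

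To show what a listed site is, 4 examples follow, taken from windows around gene starts in RefSeq (GRCm38.p6, the assembly of mm10). None is from the RNA-binding genes, whose sites lay outside these windows, and they were picked after their values were seen. Each window has 21 bases, and the capitals mark the edited C and the 2 bases before it. In the m6A motif, the A directly before a C is the base that carries the methyl group.
Rbbp6, chr7:122970612-122970632, plus strand: tgtggactGACcgctactgac
Rbbp6, chr7:122970622-122970642, plus strand: ccgctactGACtgcaccgcct
Sdf4, chr4:156013519-156013539, plus strand: gctcttctGACttccctgggc
Arpc4, chr6:113389050-113389070, plus strand: gaaacctaAACtctgtgcttg
The first Rbbp6 site was edited at 1.96% and the second, 10 nt on, at 4.46%, both in cortex alone. The Sdf4 site was edited at 16.25% in cortex, 15.96% in hippocampus and 5.68% in cerebellum. The Arpc4 site was edited at 2.7% in cortex and 2.66% in hippocampus. In all, 60 listed sites had 10 bases on both sides within such a window. The edited base was C in 60 of these 60 and the base before it was A in 60, with GAC at 35 and AAC at 25. This describes sites in windows around gene starts, and whether each start belongs to the site's own gene is not given here. Whether it holds for the sites of the RNA-binding genes, most of which lay near the 3′ end, was not tested. How sites were called is not given in the sources used here, so the calling itself may have required these bases.

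Edited sites were found in about 1 coding gene in 4 of these families, with the highest share in the group named neuronal regulators here. RefSeq has 225 coding genes with these prefixes, and 57 (25.3%) had at least 1 site in any region, against 16.6% of all coding genes. The neuronal regulators of splicing and stability (Celf, Elavl, Rbfox, Nova, Khdrbs, Ptbp, Mbnl and Qk) had 17 of 25 genes listed. The group's name is a label for its prefixes, which include the glial regulator Qk. Not all its families were well represented, with 0 of 3 Ptbp and 1 of 3 Khdrbs genes listed. The general splicing and hnRNP proteins had 20 of 82, the translation regulators 5 of 12, the proteins of the YTH, Igf2bp and Mettl families 4 of 35, those of miRNA silencing and deadenylation 4 of 18, and the DDX and DHX helicases 7 of 53. How far expression sets these shares was not tested, since the lists give no expression. Of the 25 prefixes, 21 had a site, and Ptbp, Fxr, Igf2bp and Tnrc6 had none.

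Cortex held 256 sites in 50 of these genes and hippocampus 202 sites in 41. Cerebellum held 27 sites in Celf4 and 95 in 30 other genes. Over the 57 genes, 87.7% had a cortical site, 71.9% a hippocampal site and 54.4% a cerebellar site, and over all listed genes these shares were 84.8%, 68.3% and 59.7%. The RNA-binding genes took 1.43% of the cortical list, 1.5% of the hippocampal list and 1.07% of the cerebellar list. Without Celf4 the shares were 1.07%, 1.03% and 0.834%. The cerebellar share was thus the lowest with and without that gene.

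Sites were unequally spread over the genes. A single site was listed for 23 genes, 2 to 4 sites for 14, 5 to 9 for 11 and 10 or more for 9. These 9 genes (Celf4, Nova1, Hnrnpa0, Ythdf2, Ddx6, Serbp1, Mbnl2, Celf5 and Pum2) held 200 sites, or 59.9%, and Celf4 alone held 20.4%. In the plot of site numbers by gene, Celf4 stands apart in cortex and hippocampus.

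**Figure D1:**
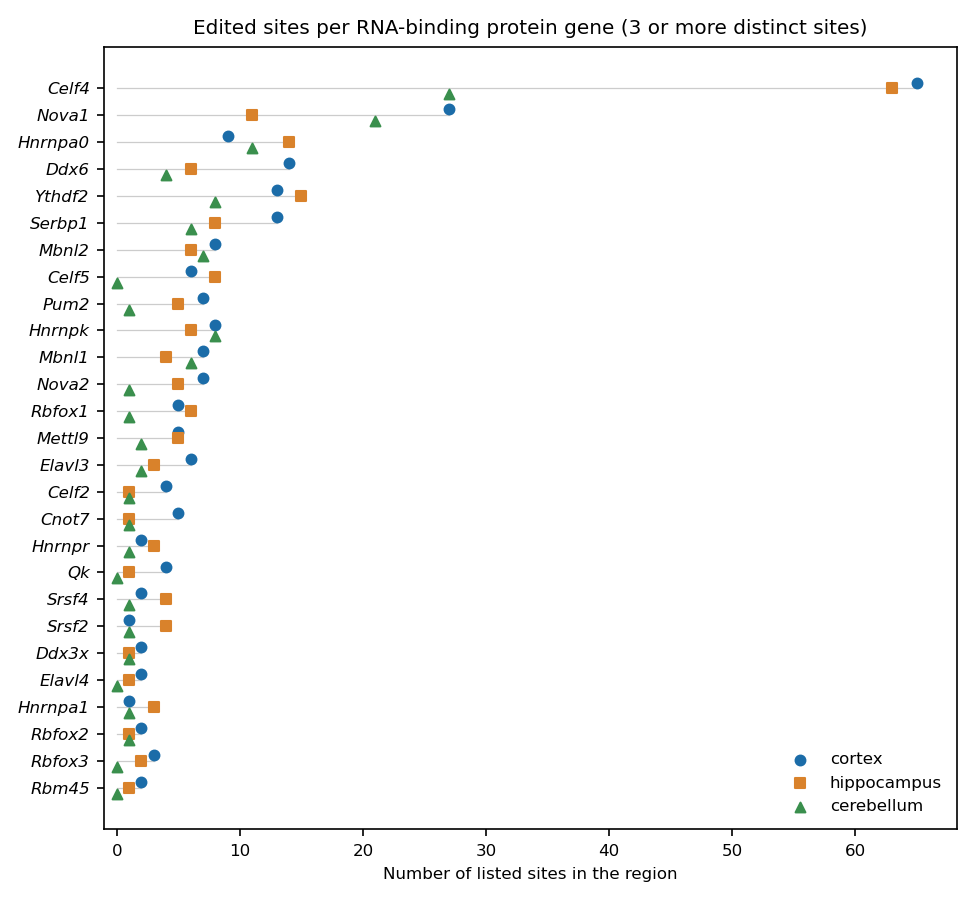
Number of edited sites listed in cortex, hippocampus and cerebellum for the RNA-binding genes with the most sites; each point is the number in 1 pooled list, so there are no error bars. Celf4 has 65, 63 and 27 sites and Nova1 27, 11 and 21, with the hippocampus lowest for Nova1.

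Most levels were low. The median level was 2.92% over the 256 cortical sites, 2.69% in hippocampus and 2.93% in cerebellum, against 2.91%, 2.82% and 3.37% over all other genes. A level of 10% or more was reached by 15 cortical (5.86%), 11 hippocampal (5.45%) and 11 cerebellar sites (9.02%), and in the other genes by 6.55%, 6.15% and 8.99%. The neuronal regulators had medians of 3.09%, 3.06% and 3.03% in cortex, hippocampus and cerebellum, and the general splicing and hnRNP proteins 2.53%, 1.92% and 2.38%. The plot of levels by role shows these groups side by side.

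**Figure D2:**
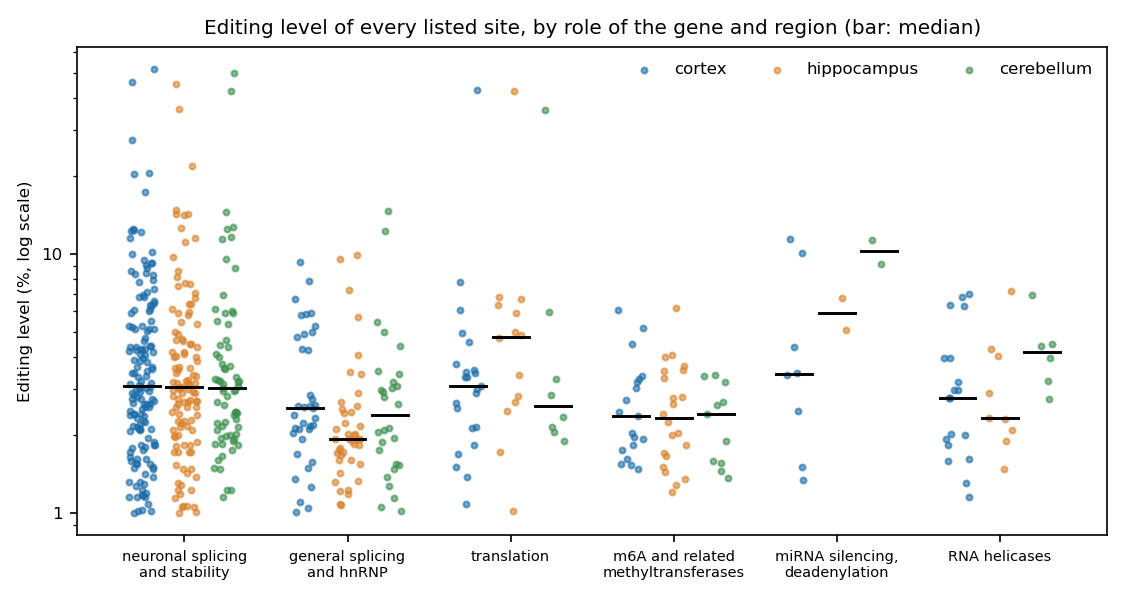
Editing level in percent (log axis) of every listed site of the RNA-binding genes, by role and region; each point is 1 site of 1 pooled list and the lines mark medians. The neuronal regulators have medians of 3.09%, 3.06% and 3.03%, and 3 sites at 35% or more stand above the rest.

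The neuronal regulators held 182 of the 334 sites, 150 listed in cortex, 113 in hippocampus and 67 in cerebellum. Celf4, which encodes a neuronal CELF protein that binds the 3′ ends of many synaptic transcripts, had 65 cortical, 63 hippocampal and 27 cerebellar sites. The 27 cerebellar sites were all listed in the other 2 regions as well. The gene lies on the minus strand of chromosome 18, and 65 of its 68 sites were within 2.1 kb of its annotated 3′ end.

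Editing along the Celf4 3′ end was not even. The means that follow are over the sites listed in each region. In the last 500 nt the mean level was 3.22% in cortex (16 sites), 2.86% in hippocampus (16) and 2.56% in cerebellum (6). Between 1500 and 2000 nt the means were 6.69%, 6.37% and 2.81%, and between 2000 and 2500 nt 11.9%, 8.68% and 4.84%. From 500 to 1000 nt the means were 3.55%, 3.45% and 1.93%, and from 1000 to 1500 nt 3.9%, 3.37% and 2.25%. The regions lay farthest apart between 2000 and 2500 nt, where the cortical mean was highest, although each mean is over a different set of sites. The stretch from 1952 to 2077 nt held 12 sites, with means of 10.4% in cortex, 8.52% in hippocampus and 4.56% in cerebellum, where 8 of the 12 were listed. The neighbouring sites at 2007 and 2016 nt had 20.3% and 17.4% in cortex, 14.1% and 14.2% in hippocampus, and 5.9% and 6.02% in cerebellum. A level of 10% or more was reached at 6 cortical, 5 hippocampal and 0 cerebellar sites of Celf4.

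**Figure D3:**
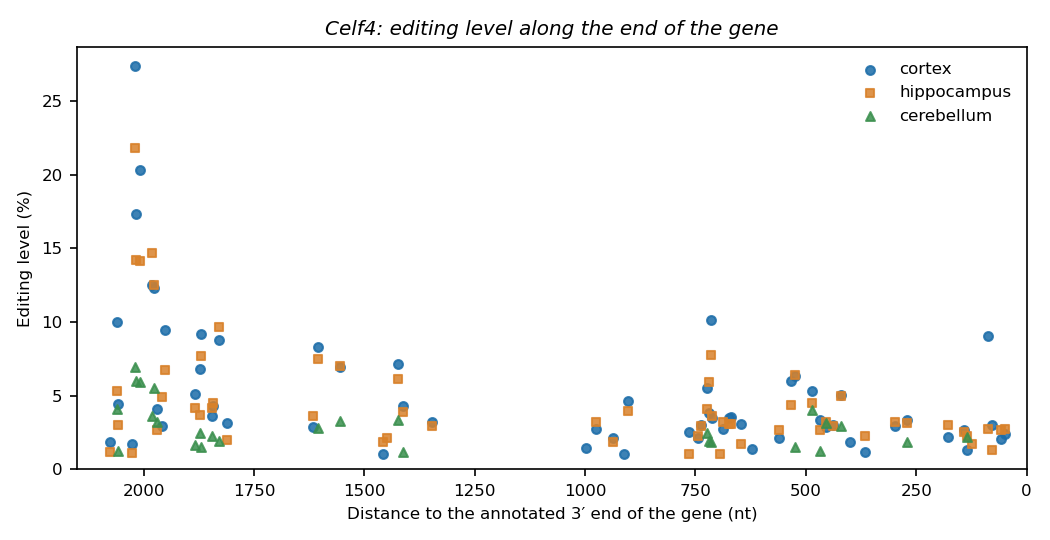
Editing level in percent of the 65 Celf4 sites within 2.1 kb of the gene's end against their distance from the annotated 3′ end in nt, for cortex, hippocampus and cerebellum; each point is 1 site of 1 pooled list. Levels peak near 2000 nt in all 3 regions, and the cerebellar points lie below the cortical ones at 25 of the 27 shared sites.

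The cortical Celf4 sites that were also listed in cerebellum were the stronger ones. Their median cortical level was 6.33% (27 sites), against 2.7% for the 38 that were not, of which the highest reached 9.47%. At the 27 sites shared by both regions, the level in cortex divided by that in cerebellum ran from 0.595 to 6.25, with a median of 2.73. The order of the sites was alike in cortex and hippocampus (Spearman's rho 0.85 over 60 sites) and less so in cortex and cerebellum (0.56 over 27). Sites of 1 transcript share their reads and pools, so these coefficients are a description. The share of cortical sites found again in cerebellum was 41.5% for Celf4, 35.6% for the other RNA-binding genes (68 of 191) and 37.1% for all genes.

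Celf4 was lower in cerebellum than in hippocampus too, in a comparison that uses the same cerebellar list. At 27 shared sites the mean was 6.94% in hippocampus and 2.96% in cerebellum, with 26 sites lower in cerebellum and a median log2 ratio of -1.19. Between cortex and hippocampus the differences were small: over 60 shared sites the means were 5.3% and 4.66%, 35 sites were lower in hippocampus and 25 higher, and the median log2 ratio was -0.12.

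The other CELF genes had fewer sites. Celf5 had 10 sites, 6 in cortex and 8 in hippocampus, and none in the cerebellar list. Its strongest site, 1440 nt from the 3′ end, was edited at 8.24% in cortex and 11.54% in hippocampus. Celf2, a splicing regulator of neurons and other tissues, had 4 cortical sites, 1 hippocampal site and 1 cerebellar site, all between 1.38% and 2.63%. Celf1 and Celf3 had 1 cortical site each, at 1.27% and 1.08%.

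Nova1 encodes a neuronal KH-domain splicing factor and had 33 sites, of which cortex held 27, hippocampus 11 and cerebellum 21. Its hippocampal list was thus the shortest, unlike that of Celf4. Of its 27 cortical sites, 10 (37.0%) were listed in hippocampus and 16 (59.3%) in cerebellum, while over all genes these shares were 52.5% and 37.1%. Among its 13 cortical sites at 5% or more, 7 were in hippocampus (53.8%, all genes 67.1%) and 11 in cerebellum (84.6%, all genes 52.3%). At 5% or more the hippocampal share was thus also below that of all genes. It rests on only 13 sites of the same gene, which share their reads and pools, and the difference was not tested. Whether hippocampal coverage of Nova1 was lower was not tested.

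The Nova1 sites listed in cortex and cerebellum but not in hippocampus numbered 10, with cortical levels from 2.11% to 20.41% (median 6.09%) and cerebellar levels from 2.15% to 14.49%. The strongest of them, on chromosome 12 at position 46698320 and 425 nt from the 3′ end, had 20.41% in cortex and 14.49% in cerebellum. A site 21 nt away, at 46698341, was listed in all 3 regions, with 12.2%, 6.38% and 12.7% in cortex, hippocampus and cerebellum. At the 16 sites shared by cortex and cerebellum, the means were 7.52% and 6.76%, 8 sites were lower in cerebellum, 7 were higher and 1 was equal.

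Nova1 sites close to the 3′ end and farther from it differed in direction, a division at 500 nt chosen after the values were seen. Within 500 nt, 5 of the 7 shared sites were higher in cerebellum, and the means were 8.94% (cortex) and 9.92% (cerebellum). Beyond 500 nt, 6 of 9 were lower in cerebellum, 2 were higher and 1 was equal, with means of 6.42% and 4.31%. The 4 Nova1 sites at least 2-fold lower in cerebellum lay at 596, 950, 1119 and 1940 nt, and at the last of them the level was 12.12% in cortex and 4.44% in cerebellum.

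**Figure D4:**
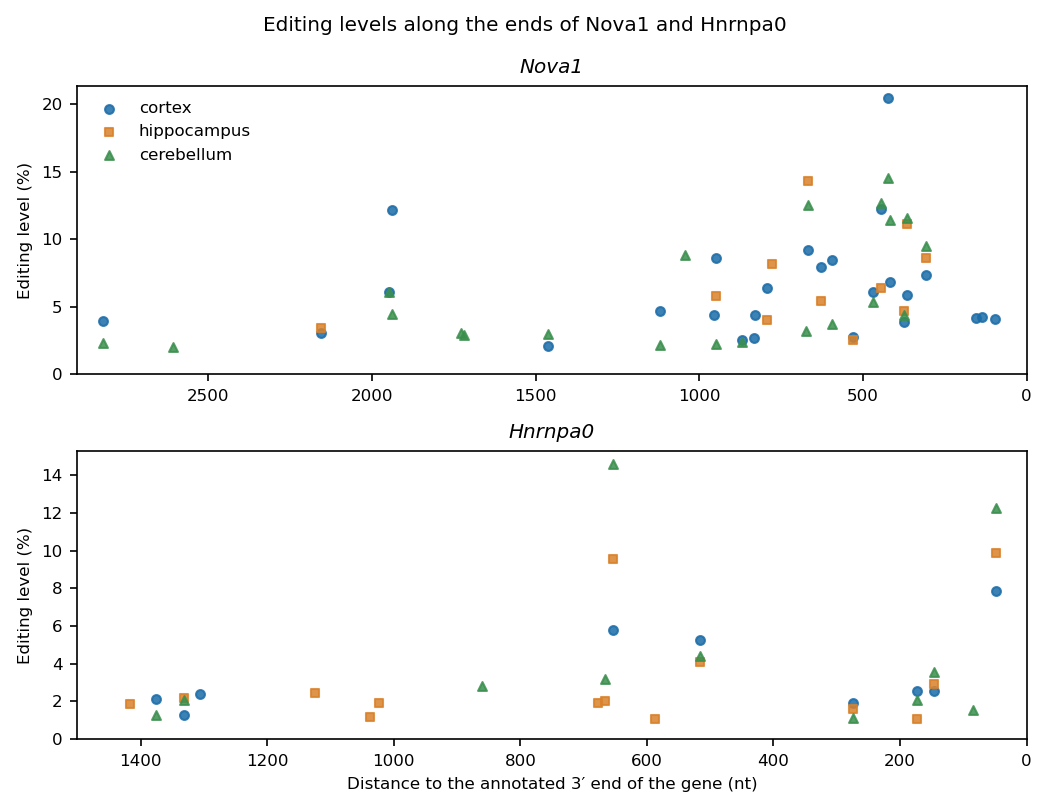
Editing level in percent of the Nova1 and Hnrnpa0 sites against the distance from the annotated 3′ end in nt, by region; each point is 1 site of 1 pooled list, and 1 Nova1 site at 15655 nt is not drawn. In Nova1 hippocampal points are missing at many sites that have cortical and cerebellar points, and in Hnrnpa0 the highest points are the cerebellar ones, at 12.28% and 14.63%.

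Nova2, the paralogue of Nova1 with a role in cortical and axonal splicing programs, had 7 cortical sites, 5 hippocampal sites and 1 cerebellar site. That 1 site was the strongest of the RNA-binding genes. It lay on chromosome 7 at position 18962946, 2373 nt from the 3′ end on the plus strand, and was edited at 51.52% in cortex, 45% in hippocampus and 50% in cerebellum. The next Nova2 site at 252 nt was edited at 11.54% in cortex and was listed in neither of the other regions. The remaining Nova2 levels ran from 2.41% to 6.56%.

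The RBFOX genes encode splicing factors that bind a short motif beside neuronal exons. Rbfox1, like Nova2, had 1 strong site among weaker ones, and the other RBFOX genes had no site above 6.45%. Rbfox1 had 5 cortical sites, 6 hippocampal sites and 1 cerebellar site. Its site on chromosome 16 at position 7277051 was edited at 45.79% in cortex, 36.15% in hippocampus and 42.41% in cerebellum. It lay 135429 nt from the 3′ end and 132780 nt from the next listed site. The other Rbfox1 sites, all within 2649 nt of the 3′ end, had levels between 1% and 2.82%, and none was listed in cerebellum. Rbfox3, also known as the neuronal antigen NeuN, had 3 cortical and 2 hippocampal sites between 1.54% and 6.45%, and Rbfox2 had 2 cortical sites, 1 hippocampal site and 1 cerebellar site between 1.56% and 3.23%.

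The MBNL genes encode splicing and localisation factors. Mbnl2 had 8 cortical, 6 hippocampal and 7 cerebellar sites, and Mbnl1 7, 4 and 6. The numbers were alike, but the sites were only partly the same. In the cerebellar list were 3 of the 8 cortical Mbnl2 sites and 4 of the 7 cortical Mbnl1 sites, against 37.1% over all genes. Of the cerebellar sites, 3 of 7 in Mbnl2 and 2 of 6 in Mbnl1 were in no other region, against 4018 of 11391 over all genes. Such partial overlap was thus not particular to these genes. In Mbnl1, 9 sites lay within 368 nt, and the strongest was edited at 5.21% in cortex, 4.59% in hippocampus and 4.63% in cerebellum. The strongest Mbnl2 site lay 106640 nt from the 3′ end and had 7.8% in cortex, 2.23% in hippocampus and 1.74% in cerebellum. At 4 Mbnl1 sites shared by cortex and cerebellum the median log2 ratio was 0.11, and at 3 Mbnl2 sites 0.21.

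The ELAVL genes encode stabilisers of AU-rich transcripts. Elavl3 had 6 cortical, 3 hippocampal and 2 cerebellar sites, and its site at 1055 nt was edited at 5.11% in cortex, 2.69% in hippocampus and 5.88% in cerebellum. At its 3 sites shared by cortex and hippocampus the means were 3.43% and 2.32%. Elavl4 had 2 cortical sites and 1 hippocampal site, Elavl2 had 2 cortical sites, and neither was listed in cerebellum. Qk, which encodes the glial splicing regulator quaking, had 4 cortical sites between 1.95% and 3.64%, 1 hippocampal site at 1.48% and none in cerebellum. Khdrbs1 had 1 hippocampal site at 1.42%.

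Among the general splicing and hnRNP proteins, 65 sites were listed, 37 in cortex, 42 in hippocampus and 28 in cerebellum. Hnrnpa0, which encodes a protein that binds AU-rich elements, had 9 cortical, 14 hippocampal and 11 cerebellar sites on chromosome 13. Its site 49 nt from the 3′ end was edited at 7.87% in cortex, 9.86% in hippocampus and 12.28% in cerebellum. Its site at 654 nt was edited at 5.79%, 9.55% and 14.63%. Cerebellum was highest at both. Over the 8 sites shared by cortex and cerebellum the means were 3.67% and 5.18%, but 4 sites were higher and 4 lower, so the higher mean came from the strong sites. Over the 8 shared by hippocampus and cerebellum, 6 were higher in cerebellum, with means of 4.15% and 5.42%.

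Hnrnpk encodes a poly(C)-binding regulator of splicing and translation, and it had 8 cortical, 6 hippocampal and 8 cerebellar sites within 469 nt. At 7 sites shared by cortex and cerebellum the means were 2.94% and 1.6%, and 4 sites were at least 2-fold lower in cerebellum. The strongest of these, 321 nt from the 3′ end, was edited at 5.83% in cortex and 2.13% in cerebellum. The 2 sites that were higher in cerebellum went from 1.01% to 1.75% and from 1.1% to 1.88%. Hnrnpk thus shared the direction of Celf4 between cortex and cerebellum at 5 of 7 sites, although it had as many sites in both regions.

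The SR proteins, which recruit the splicing machinery to exons, had 6 cortical, 10 hippocampal and 6 cerebellar sites in 6 genes. Srsf2 had 1 cortical and 4 hippocampal sites, and the site it had in all 3 regions was edited at 2.19%, 1.9% and 3.03% in cortex, hippocampus and cerebellum. Srsf4 had 2, 4 and 1 sites, with the highest level, 7.22%, at a site listed in hippocampus alone. Hnrnpr had 2, 3 and 1 sites, of which one was edited at 5.68% in hippocampus and 5% in cerebellum. Rbmx, the X-linked RBM gene for hnRNP G, had 2 sites, at 9.3% and 2.33% in cortex alone, and Rbm45 had 3 sites within 38 nt, 2 in cortex and 1 in hippocampus. Of the 46 coding genes with the Rbm prefix, only these 2 were listed. The remaining genes of these families had 1 to 3 sites each: Hnrnpa1, Hnrnpa3, Hnrnpc, Hnrnpd, Hnrnpdl, Hnrnpu and Hnrnpul1, with levels from 1.21% to 5.88%, and Srsf1, Srsf3, Srsf6 and Srsf7, with levels from 1.04% to 3.42%. Pcbp3 had 1 site, at 4.88% in cortex and 1.71% in hippocampus, and Pcbp4 had 1, at 2.11% in cortex.

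The translation regulators had 28 sites in 5 genes. Cpeb3, which encodes a cytoplasmic polyadenylation element binding protein linked to memory, had 1 site. It lay on chromosome 19 at position 37021311, 1970 nt from the 3′ end on the minus strand, and was edited at 42.68% in cortex, 42.42% in hippocampus and 35.9% in cerebellum. The nearest other listed site was 247878 nt away. Cpeb4 had 1 cortical site at 3.45%.

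Serbp1, which encodes an mRNA- and ribosome-binding protein, had 13 cortical, 8 hippocampal and 6 cerebellar sites within 826 nt. At 7 sites shared by cortex and hippocampus the means were 4.38% and 5.21%, with a median log2 ratio of 0.70. At 4 sites shared by hippocampus and cerebellum the means were 5.13% and 3.25%, with a median of -0.72. Hippocampus was the highest region at 3 of the 4 sites listed in every region. Pum2, a repressor that binds 3′ ends, had 7 cortical, 5 hippocampal sites and 1 cerebellar site, all between 1.02% and 3.39%. Fmr1, which encodes the fragile X protein, had 1 cortical site at 3.33%.

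Among the YTH and Mettl genes, Ythdf2, the reader that brings methylated transcripts to decay, had the most sites: cortex held 13, hippocampus 15 and cerebellum 8. On the minus strand of chromosome 4, 15 of its 16 sites lay within 478 nt, between positions 132204180 and 132204657. The outermost annotated 3′ end of the gene is 19264 nt from the nearest of these 15, a distance along the genome that may include introns. Its site at 132204180 was edited at 1.48% in cortex, 6.17% in hippocampus and 3.21% in cerebellum. That at 132204320 had 4.47%, 3.99% and 1.89%. The pair differed in order, with the hippocampus highest at one and the cortex at the other. Over 8 sites shared by hippocampus and cerebellum, 7 were lower in cerebellum, with means of 3.54% and 2.14%. Over 12 shared by cortex and hippocampus, 8 were higher in hippocampus, with means of 2.48% and 3.15%.

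The other m6A-binding proteins of the YTH family had few sites. The nuclear reader Ythdc1 had 1 site, at 1.83% in cortex, 1.35% in hippocampus and 1.59% in cerebellum. Ythdf3 had 1 hippocampal site at 3.57%. Mettl9, a protein histidine methyltransferase that shares only the prefix with the m6A writers, had 5 cortical, 5 hippocampal and 2 cerebellar sites, and was the single one of 27 coding Mettl genes to be listed. In a list of 27 genes of the m6A machinery, 9 (33.3%) had a site, against 16.6% of all coding genes. They were 1 of 12 writers (8.33%), 1 of 2 erasers and 7 of 13 readers (53.8%). Whether these classes differ was not tested. The writer was Wtap, the adaptor of the methyltransferase complex, with 3 cortical sites of which the highest was at 17.1%. The eraser was Fto, with 4 cortical, 2 hippocampal and 4 cerebellar sites and a highest level of 41.9%, 42.7% and 41% in these regions. The other readers were Prrc2a, with 3, 6 and 2 sites, Hnrnpc, with 1 hippocampal site at 1.33%, Rbmx and Fmr1.

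Genes of miRNA silencing and deadenylation had 9 sites in 4 genes. Ago1, an Argonaute protein that carries miRNAs, had 1 site in cerebellum, at 11.32%, and none elsewhere. Ago2 had 2 sites, of which one was edited at 11.43% in cortex alone. The other, at 3.45% in cortex and 5.08% in hippocampus, lay outside the annotated span of the gene. Cnot7, a catalytic subunit of the deadenylase complex, had 5 cortical sites, and its strongest site was edited at 10.09% in cortex, 6.76% in hippocampus and 9.09% in cerebellum. Cnot2 had 1 cortical site at 3.41%.

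The helicases had 24 sites in 7 genes, of which Ddx6, an RNA helicase of P-bodies, had 16. Its 14 cortical, 6 hippocampal and 4 cerebellar sites all lay within 701 nt. At its strongest site listed in all 3 regions the levels were 6.35% in cortex, 7.2% in hippocampus and 4.42% in cerebellum. Its highest cortical level, 6.98%, was at a site listed in cortex alone. Ddx3x had 3 sites between 1.15% and 3.23%, and Dhx36, which unwinds G-quadruplexes, had 1, at 3.19% in cortex and 6.94% in cerebellum. Ddx18 and Ddx47 had 1 cortical site each, at 6.82% and 2%, and Ddx5 and Ddx42 had 1 hippocampal site each, at 1.48% and 2.08%.

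The 3 sites edited at 35% or more, in Nova2, Cpeb3 and Rbfox1, stood apart from all others of these genes. The next highest level was 27.4%, in Celf4. All 3 were listed in every region, and without them none of the 3 genes had a cerebellar site. The lowest of their 9 levels was 35.9% and the highest 51.5%, and at each of them the levels of the 3 regions were within 2-fold. Such levels were not particular to these genes. Over all genes, 237 of 17878 cortical, 131 of 13461 hippocampal and 169 of 11391 cerebellar sites reached 35%. The lists hold no APOBEC1-YTHmut value, so whether the levels at sites of this strength, in these or other genes, depend on m6A was not tested.

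At sites listed in both cortex and cerebellum, the lower cerebellar levels came largely from Celf4. By the median ratio of each gene, 11 genes were lower in cerebellum and 12 higher. In all, 95 sites were shared. Of these, 30 (31.6%) were at least 2-fold lower in cerebellum, against 12% of all shared sites, and 3 (3.16%) were at least 2-fold higher, against 15.1%. Celf4 gave 19 of the 30, Hnrnpk and Nova1 4 each, Ythdf2 2 and Mbnl2 1. The 3 that were higher lay in Hnrnpa0, Ythdf2 and Dhx36. Without Celf4, 11 of 68 (16.2%) were at least 2-fold lower and 3 (4.41%) higher, while 35 of the 68 were lower by any amount and 32 higher. With 1 value a gene, 2 of 23 genes (8.7%) were at least 2-fold lower, against 6.42% of all genes. The median log2 ratio of cerebellum to cortex was -0.30 over the 95 sites and -0.06 over the 68, and 0.06 over all shared sites. Sites of a gene are not independent, and Celf4 has 27 of the 95.

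**Figure D5:**
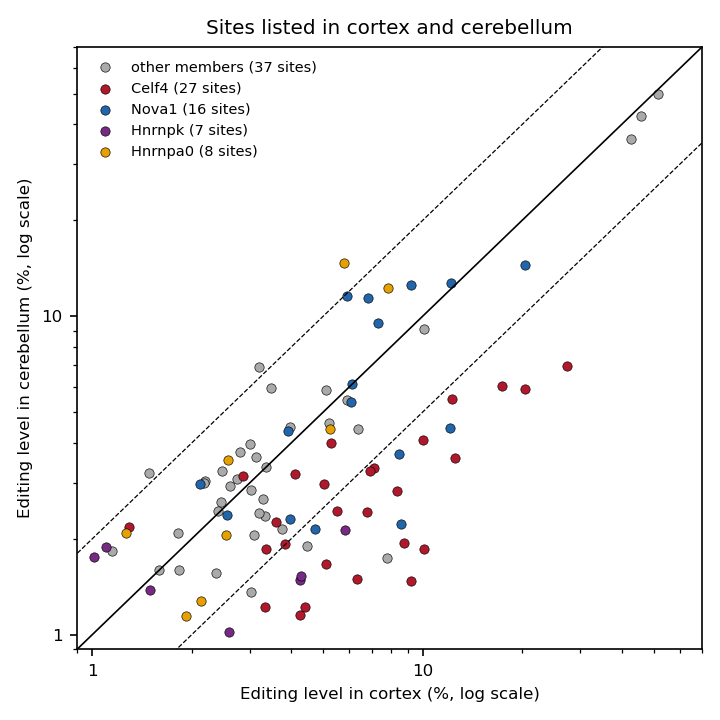
Editing level in cerebellum against that in cortex, both in percent on log axes, for the 95 sites of the RNA-binding genes listed in both regions, each point 1 site, with colours for Celf4, Nova1, Hnrnpk and Hnrnpa0. The solid line marks equal levels and the dashed lines 2-fold differences. Most Celf4 points lie below the line of equal level, and the 3 sites at 35% or more lie near it.

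Between hippocampus and cerebellum, a comparison that uses the same cerebellar list, 78 sites were shared. At least 2-fold lower in cerebellum were 23 (29.5%), against 11.4% of all shared sites, and 2 (2.56%) were higher, against 15.2%. Celf4 gave 16 of the 23, Ythdf2 3, Serbp1 2, and Hnrnpk and Nova1 1 each. The 2 that were higher lay in Elavl3 and Srsf3. Without Celf4, 7 of 51 (13.7%) were lower and 2 (3.92%) higher. The median log2 ratio was -0.31 over the 78 sites, -0.02 over the 51 and 0.04 over all.

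Cortex and hippocampus were closest. Of 145 shared sites, 91.7% were within 2-fold, against 84.5% of all shared sites. At least 2-fold lower in hippocampus were 10 (6.9%), against 8.17% of all, and 2 (1.38%), both in Ythdf2, were higher, against 7.37%. The 10 lower sites were 3 of Celf4 and 1 each of Celf5, Ddx6, Hnrnpa0, Hnrnpk, Mbnl2, Mettl9 and Pcbp3. The log2 ratio, hippocampus over cortex, had a median of -0.05 for the RNA-binding genes and -0.02 for all.

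By role, the neuronal regulators had 55 sites shared by cortex and cerebellum, of which 24 were at least 2-fold lower in cerebellum and 0 higher. Their means at these sites were 8.48% in cortex and 5.66% in cerebellum. The general splicing and hnRNP proteins had 20, with 4 lower and 1 higher, and means of 3.27% and 3.5%. The YTH and Mettl genes had 9, with 2 lower and 1 higher, the translation regulators 6 and the helicases 4, with 0 lower in both and 1 helicase site (Dhx36) higher. Over all genes, 12% of the sites shared by cortex and cerebellum were at least 2-fold lower in cerebellum and 15.1% higher. Whether these roles differ was not tested. Celf4 gave 27 of the 55 neuronal sites and 19 of the 24 that were lower.

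Among RNA-binding genes with a site in at least 1 of the 2 regions compared, more than 50% had at least 2-fold fewer sites in cerebellum. This held against cortex and against hippocampus, and few genes had more. Scaled to the list totals, the shares with fewer were near those of all genes. With 1 added to each number, 31 of 52 genes (59.6%) had at least 2-fold fewer sites in cerebellum than in cortex, against 49.5% of all genes, and 2 (3.85%), Ago1 and Srsf7 with 1 cerebellar site each, had more, against 14.6%. Between hippocampus and cerebellum, 24 of 46 genes (52.2%) had fewer in cerebellum, against 36.6%, and 5 (10.9%) had more, against 23.6%. These 5 were Ago1, Srsf1, Srsf7, Dhx36 and Hnrnpul1. Between cortex and hippocampus, 19 of 55 genes (34.5%) had fewer in hippocampus, against 36.2%, and 7 (12.7%) had more, against 9.76%. The 7 were Srsf2, Hnrnpa1, Hnrnpc, Ddx5, Ddx42, Khdrbs1 and Ythdf3. The lists differ in length, and scaled to the list totals the share with fewer in cerebellum than in cortex was 23.1%, against 22.6% of all genes, and that with more 3.85%, against 17.1%. Scaled likewise, 15.2% had fewer in cerebellum than in hippocampus, against 17.5%, and 13% had more, against 24.2%. Many of these genes had 0 or 1 site, so that 1 site more or less decides a call.

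Of the 334 sites, 72 (21.6%) were listed in all 3 regions, against 19% of all sites, and 73 (21.9%) in cortex and hippocampus, against 17.1%. Cortex alone held 88 (26.3%, all genes 26.2%), hippocampus alone 51 (15.3%, all genes 12.8%) and cerebellum alone 21 (6.29%, all genes 15.5%). The share of cerebellum-only sites was the one farthest from that of all genes. Of the 57 genes, 26 were listed in every region (45.6%, all genes 43.1%), 11 in cortex alone (19.3%, all genes 17.4%), 5 in hippocampus alone (8.77%, all genes 5.23%) and 2, Ago1 and Srsf7, in cerebellum alone (3.51%, all genes 7.75%).

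The sites of the RNA-binding genes lay about as near the 3′ end as those of all genes. The median distance to the annotated 3′ end was 1457 nt, against 1520 nt over all genes, and 85.6% lay within 5 kb of it, against 87.0%. Another listed site was within 50 nt for 63.2%, and for 54.5% without Celf4, against 59.3% over all genes. Neighbouring edits can come from the same m6A, so the number of sites is not a number of methylated adenosines.

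Summed over its marker genes, each region had the most sites in its own list. The markers were chosen with earlier results of these data known. Of 10 cerebellar marker genes, 7 were listed, with 10 cortical, 4 hippocampal and 151 cerebellar sites. Of 7 cortical markers, 5 were listed, with 15, 4 and 0 sites, and of 6 hippocampal markers 5, with 11, 43 and 1. Not every marker went with the sum: the cortical marker Bcl11b had 1 cortical and 3 hippocampal sites. Of 4 choroid plexus genes, 2 were listed, Ttr with 8 sites and Kl with 1, all in the cerebellar list. The part of such tissue in the results above was not tested.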

How the data were processed

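Poly(A) RNA was sequenced in bulk from 900 ng of total RNA per library with a directional kit, per the labels' protocols, and aligned with STAR 2.7.5 to mm10, per the submitters' processing notes. How sites were called and libraries pooled is not given in the sources used here. The authors deposited 1 headerless list a region, with 6 columns (position, symbol, value and strand). The deposited fraction in its value column was taken to be the edited share of reads and is printed as percent, and the lists carry neither depth nor values per animal. Positions are the lists' end column, which is the edited base counted from 1, as checked against RefSeq windows. 

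Genes were taken by prefix. A site was shared when chromosome, position and strand were identical. Levels were compared as log2 ratios and site numbers with a pseudocount of 1, and a 2-fold difference was counted. Shares over all genes stand beside those of the chosen genes, and no test was run, because each region has 1 pooled value. Distances were measured along the genome to the annotated 3′ end in RefSeq. Member sites' sequences were not used here, since no genome sequence was read. The counting was checked on simulated data.

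Named were, per prefix, the 2 genes with the most sites, the 10 genes with the largest difference in site number, those with the most sites in 1 region alone, the 4 largest and 4 smallest median ratios a pair, and the 5 highest sites a region; other genes are named to complete a family. The members and lists were chosen with earlier results of these data known. The limit of 35% and the Celf4 and Nova1 stretches were chosen after the values were seen. Scripts ran under Python 3.11.15 with pandas 2.3.3, numpy 2.4.6, scipy 1.17.1 and, for plots, matplotlib 3.10.9.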

Additional observations from a re-analysis of the deposited data

How the results depend on the processing

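Of 96 alternative values over 21 counts, medians and shares, 64 stayed close to the reported one and 32 moved. Such values have no sign to reverse. Close meant within a set fold for a count, and within the 95% interval of the reported value for a median or share. That interval treats sites or genes as independent. The share of genes with more sites in cerebellum than in hippocampus counted as close at 10.9% as reported and 21.1% with sites at 5% or more. With sites at 5% or more, the cortical, hippocampal and cerebellar lists held 64, 40 and 25 sites in 25, 15 and 13 genes, with medians of 7.06%, 7.21% and 9.09%, so that the hippocampal median passed the cortical one. With at least 2 sites a gene, 28, 20 and 11 genes were counted. With 1 value a gene the median was 2.46% in cortex and 2.1% in hippocampus, and without Celf4 it was 2.41% in hippocampus. The share of shared sites at least 2-fold lower in cerebellum than in cortex was 47.7% with 5% or more in at least 1 list, 8.7% with 1 value a gene and 16.2% without Celf4. Against hippocampus it was 46.9%, 5.26% and 13.7%. The shares of 8.7% and 5.26% lie below the 12% and 11.4% of all sites, and beside 6.42% and 6.35% of all genes with 1 value a gene. The share higher in hippocampus than in cortex was 0% with 1 value a gene. For site numbers, adding 3 in place of 1 left 0% of genes with more sites in hippocampus than in cortex, 0% with more in cerebellum than in cortex and 0% with more in cerebellum than in hippocampus, and 3.64%, 17.3% and 10.9% with fewer. Scaling to the list totals gave 9.09%, 23.1% and 15.2% with fewer, and sites at 5% or more gave 50% with fewer in hippocampus than in cortex. Depth limits what can be seen, since a thinly covered site is missing from a list, and no value has a replicate error. Of 315 alternative site numbers of 35 named genes, 238 stayed close and 77 moved, 70 of them with sites at 5% or more.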

Other observations

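Other RNA-binding and RNA-decay genes, outside the prefixes, were also listed. Of 79 such genes, 33 (41.8%) had a site, against 25.3% of the genes with the prefixes and 16.6% of all coding genes. The 79 genes were chosen with earlier results of these data known, so their share may reflect that choice. No allowance was made for expression, so these shares do not rank the gene sets. Cortex held 132 sites, hippocampus 111 and cerebellum 79, with medians of 2.81%, 2.56% and 4.58%. G3bp2, a stress granule protein gene, had 30, 33 and 21 sites in cortex, hippocampus and cerebellum. Stau2, which encodes a double-stranded RNA-binding protein of dendritic transport, had 27, 17 and 5 sites, and Zfr had 19, 17 and 3. Cerebellum had the most sites in Drosha, the nuclear miRNA-processing nuclease gene, with 8, 4 and 13, and in the decapping enzyme gene Dcp2, with 1, 1 and 7. Pabpn1, which encodes the nuclear poly(A)-binding protein, had 1 site in each region, at 42.5% in cortex, 52.2% in hippocampus and 48.7% in cerebellum. These values come from pooled lists without replicates and were not tested.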
